A study of Sus scrofa with 5 samples.

Results

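Genes for the movement of salt, acid and base, and phosphate across kidney cells were followed in a pig kidney transplanted into a human recipient. The set held every pig gene symbol that starts with SLC4A, SLC8A, SLC9A, SLC12A, SLC20A, SLC26A, SLC34A, ATP1A, ATP1B or FXYD, which gave 55 of the 15235 symbols in the pig count table. Of these, 50 passed the filter on low counts and were tested. The study measured RNA by bulk sequencing of ribosomal-RNA-depleted libraries from kidney core biopsies of its second transplant case. The xenograft group was a single graft, biopsied at 12, 24 and 48 h with 1 library at each time. The control group was 2 libraries, replicates 1 and 2, taken at 0 h from an untransplanted control kidney. Both groups were pig kidney, and the breed, the genotype, any gene edits, the age and the drug treatment are not stated in the labels. No label says whether the 2 control libraries are from separate animals, so every p-value measures only the spread between these libraries.

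Sodium reabsorption along the nephron is powered by the sodium-potassium pump of the basolateral membrane, a complex of a catalytic alpha subunit, a beta subunit needed to reach the membrane and a small regulatory FXYD protein. Each segment adds its own apical carriers. In the proximal tubule, SLC34 proteins take up phosphate with sodium, the sodium-proton exchanger NHE3 (SLC9A3) secretes acid, and NBCe1 (SLC4A4) returns bicarbonate to the blood. The thick ascending limb uses NKCC2 (SLC12A1), the target of loop diuretics, and the distal convoluted tubule uses NCC (SLC12A3), the target of thiazides. Intercalated cells of the collecting duct secrete acid or bicarbonate through chloride-bicarbonate exchangers, among them AE1 (SLC4A1) and pendrin (SLC26A4).

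The pig-table total was 56129926 to 66169176 counts per biopsy library, against 65919506 and 71108823 in the controls. The members together took 1.03%, 1.35% and 1.04% of the counts in the 12, 24 and 48 h biopsies, against 1.01% and 0.840% in control replicates 1 and 2. The 13 mitochondrial genes took 11.8% to 14.5% of the biopsy counts, against 21.9% and 33.4% in the controls. Levels are given as CPM (counts scaled to a common library size of 1e+06) after TMM scaling, which corrects library totals for differences in composition. They are not corrected for transcript length, so levels were compared between libraries and not between genes. The kidney markers were present in both groups, with LRP2 of the proximal tubule at 470.1, 1054 and 873 CPM in the 12, 24 and 48 h biopsies, against 3354 and 3118 CPM in the controls, and UMOD of the thick ascending limb at 5125, 4987 and 3378 CPM, against 2664 and 2544 CPM. The 24 h biopsy had the highest level of the 3 biopsies in 27 of the 50 members tested, which is 54%, against 26.5% of all 12620 genes tested. Because these were bulk samples, fewer cells of a type and less RNA per cell cannot be told apart.

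Biopsies of the xenograft were set against the controls to ask how transport genes differed between the graft and an untransplanted kidney. Transplantation and differences between kidneys cannot be told apart here. In this comparison, rose and fell mean higher and lower than in the controls. Of the 50 members tested, 15 rose and 14 fell by the quasi-likelihood test of edgeR, with p-values adjusted over all genes after Benjamini and Hochberg and called under 0.05. Across all 12620 genes tested, 37.5% were called, 18.5% higher and 19% lower. The median log2 fold change was -0.08 over the members and 0.03 over all genes. The median size of the change, without its sign, was 0.99 on the log2 scale for the members and 0.46 for all genes. Calls were lost with either control left out, a fit that keeps 1 control library, both among the members and over all genes. All 29 called members kept their sign in these fits. 11 members passed under every one of the 10 alternatives tried. They included SLC34A1, SLC34A3, SLC4A4, SLC26A1, SLC9A3R1, SLC4A9 and ATP1B2, all lower, and SLC12A2, SLC12A4 and SLC4A1, all higher. How many of all genes passed under every alternative is not given here.

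**Figure D1:**
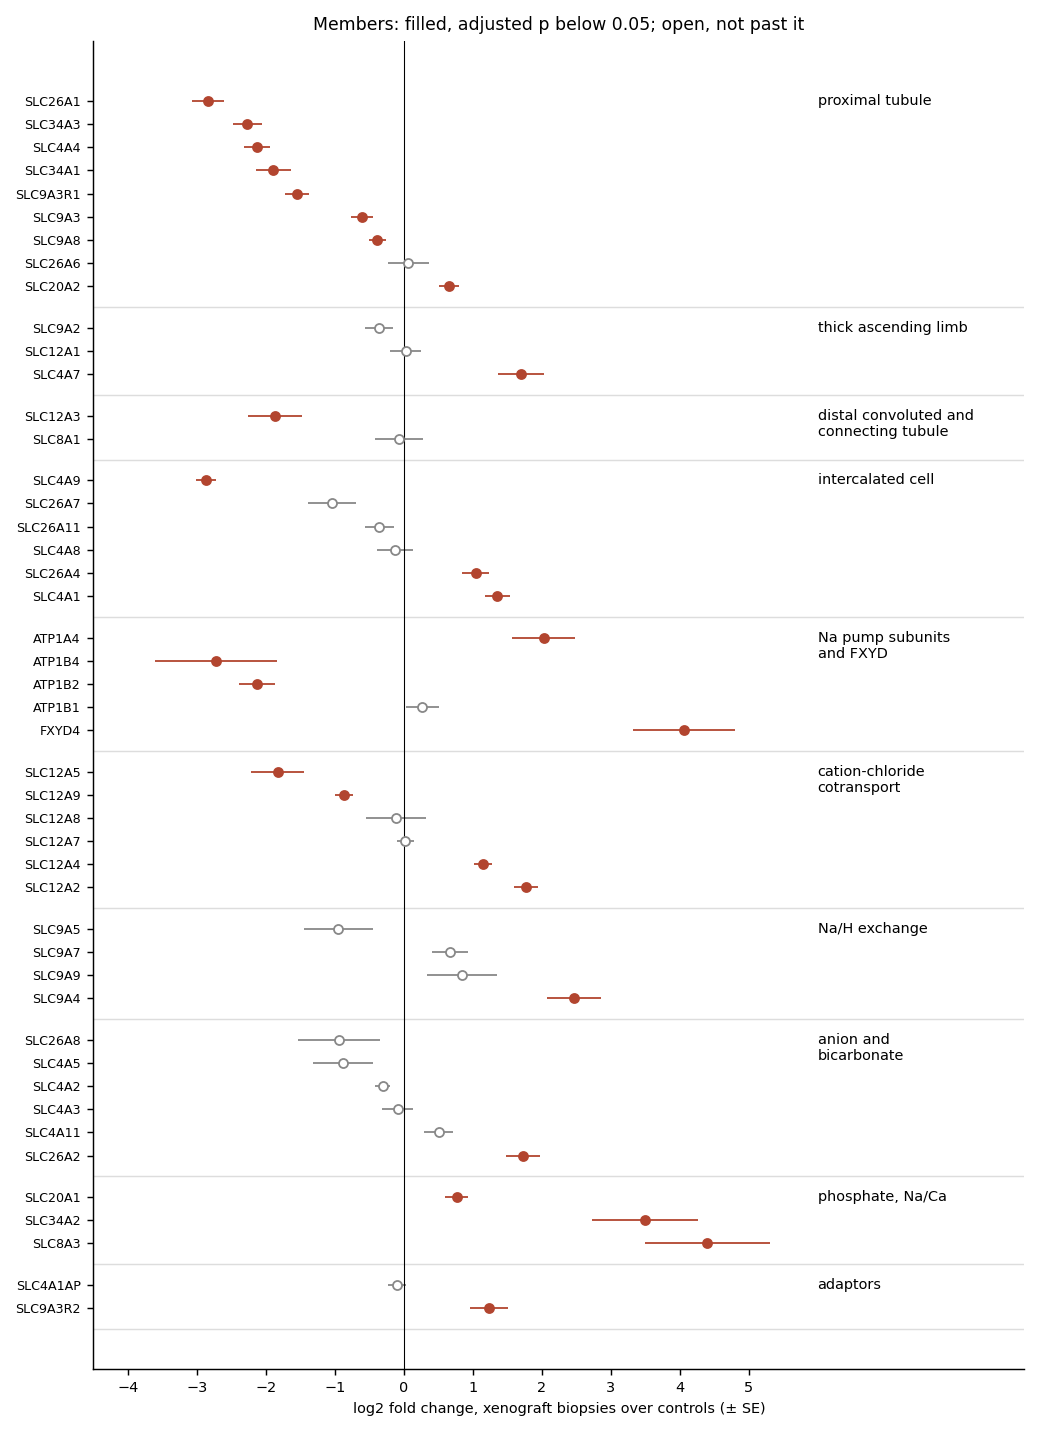
Log2 fold change of 46 of the 50 members tested, xenograft biopsies (3) over controls (2), with bars of ± 1 SE, grouped by the place or role of the gene product. Filled points passed an adjusted p of 0.05. The proximal tubule genes lie mostly left of 0, with SLC20A2 to the right of it, while the 3 phosphate and sodium-calcium carriers and FXYD4 lie to the right.

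Phosphate, bicarbonate and sulfate carriers of the proximal tubule were much lower in the graft. Of 9 genes listed for this segment, all tested, 7 fell, 1 rose and 1 was not called, with a median log2 fold change of -1.54. Those that fell include SLC9A3R1, which encodes a scaffold and not a carrier. SLC34A1, which encodes the main sodium-phosphate cotransporter of the brush border (NaPi-IIa), stood at 439, 786 and 602 CPM in the 12, 24 and 48 h biopsies, against 2120.0 and 2403 CPM in control replicates 1 and 2. Every biopsy was below both controls, and the 12 h biopsy was the lowest of the 3. The gene fell 3.71-fold (log2 fold change -1.89 ± 0.26, where ± is the SE and n is 3 and 2 libraries, edgeR adjusted p = 0.00216). SLC34A3, encoding the related carrier NaPi-IIc, had 45.6, 69.2 and 60.8 CPM in the biopsies, against 245 and 319 CPM in the controls, and fell 4.82-fold (log2 -2.27 ± 0.21, adjusted p = 0.00068).

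SLC4A4, encoding the basolateral sodium-bicarbonate cotransporter NBCe1, had 363, 372 and 267 CPM in the biopsies, against 1508 and 1421 CPM in the controls. It fell 4.38-fold (log2 -2.13 ± 0.19, edgeR adjusted p = 0.000668), and the 48 h biopsy was the lowest library. SLC26A1, a basolateral sulfate and oxalate exchanger gene, fell the most of the 9, with 21.6, 37.0 and 33.9 CPM in the biopsies, against 208 and 235 CPM in the controls (log2 -2.85 ± 0.23, adjusted p = 0.000612). SLC26A1 overlaps IDUA on the RefSeq gene map (Sscrofa11.1), and the strand setting of the counting was not given. IDUA itself had 24.1, 37.9 and 52.1 CPM in the biopsies, against 27.3 and 33.5 CPM in the controls, and was not called (log2 0.32 ± 0.31, adjusted p = 0.441). SLC9A3R1, encoding the scaffold NHERF1 that holds NaPi-IIa and NHE3 at the brush border, fell 2.92-fold, with 261, 343 and 288 CPM in the biopsies, against 784 and 949 CPM in the controls (log2 -1.54 ± 0.18, adjusted p = 0.00123).

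The sodium-proton exchangers of the same segment had smaller fold changes. SLC9A3, encoding NHE3, had 87.8, 120.1 and 92.8 CPM in the biopsies, against 150.2 and 154 CPM in the controls, with no overlap between the groups, and was 1.52-fold lower (log2 -0.60 ± 0.16, edgeR adjusted p = 0.0243). SLC9A8, encoding NHE8, had 17.6, 19.0 and 18.7 CPM in the biopsies, against 23.7 and 24.4 CPM in the controls (log2 -0.38 ± 0.12, adjusted p = 0.0432). Ratios of counts within a library need no scaling and were given no test. The ratio of SLC34A1 to SLC9A3 counts within a library was 4.998, 6.54 and 6.48 in the biopsies, against 14.1 and 15.6 in the controls. The ratio of SLC4A4 to SLC9A3 counts was 4.13, 3.10 and 2.88 in the biopsies, against 10.03 and 9.22 in the controls. The ratio of SLC34A1 to SLC34A3 was closer, at 9.62, 11.4 and 9.89 in the biopsies, against 8.66 and 7.53 in the controls. SLC9A3 lost its call with control replicate 1 or 2 left out (adjusted p = 0.123 and 0.156), as did SLC9A8 (0.167 and 0.228), which also failed without the 24 h and the 48 h biopsy (0.0885 and 0.0660).

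Of the other two proximal tubule genes, 1 rose and 1 was not called. SLC20A2, encoding the sodium-phosphate cotransporter PiT-2, had 24.4, 20.4 and 23.1 CPM in the biopsies, against 15.3 and 13.4 CPM in the controls, and rose 1.58-fold (log2 0.66 ± 0.15, edgeR adjusted p = 0.013). SLC26A6, an apical chloride-oxalate exchanger gene, had 63.7, 46.6 and 30.4 CPM in the biopsies, against 41.6 and 48.0 CPM in the controls, and was not called (log2 0.07 ± 0.29, adjusted p = 0.872). Its 12 h biopsy was above both controls and its 48 h biopsy below both. SLC20A2 was past the threshold only with both controls in the fit (adjusted p = 0.0636 and 0.134).

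Markers of the proximal tubule that are not transporters of this set were lower as well. Of 14 such markers tested, 13 fell and 0 rose, with a median log2 fold change of -1.71 and a summed level of 8713 to 11822 CPM in the biopsies, against 27500 to 28420 CPM in the controls. The 3 that fell most were SLC5A12, a lactate carrier gene (12.1-fold), GATM of creatine synthesis (7.18-fold) and the organic anion carrier gene SLC22A6 (6.03-fold). The part of this marker change in the result for the transporters was not tested. Without control replicate 1 or 2, 9 of the markers fell in each fit.

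**Figure D2:**
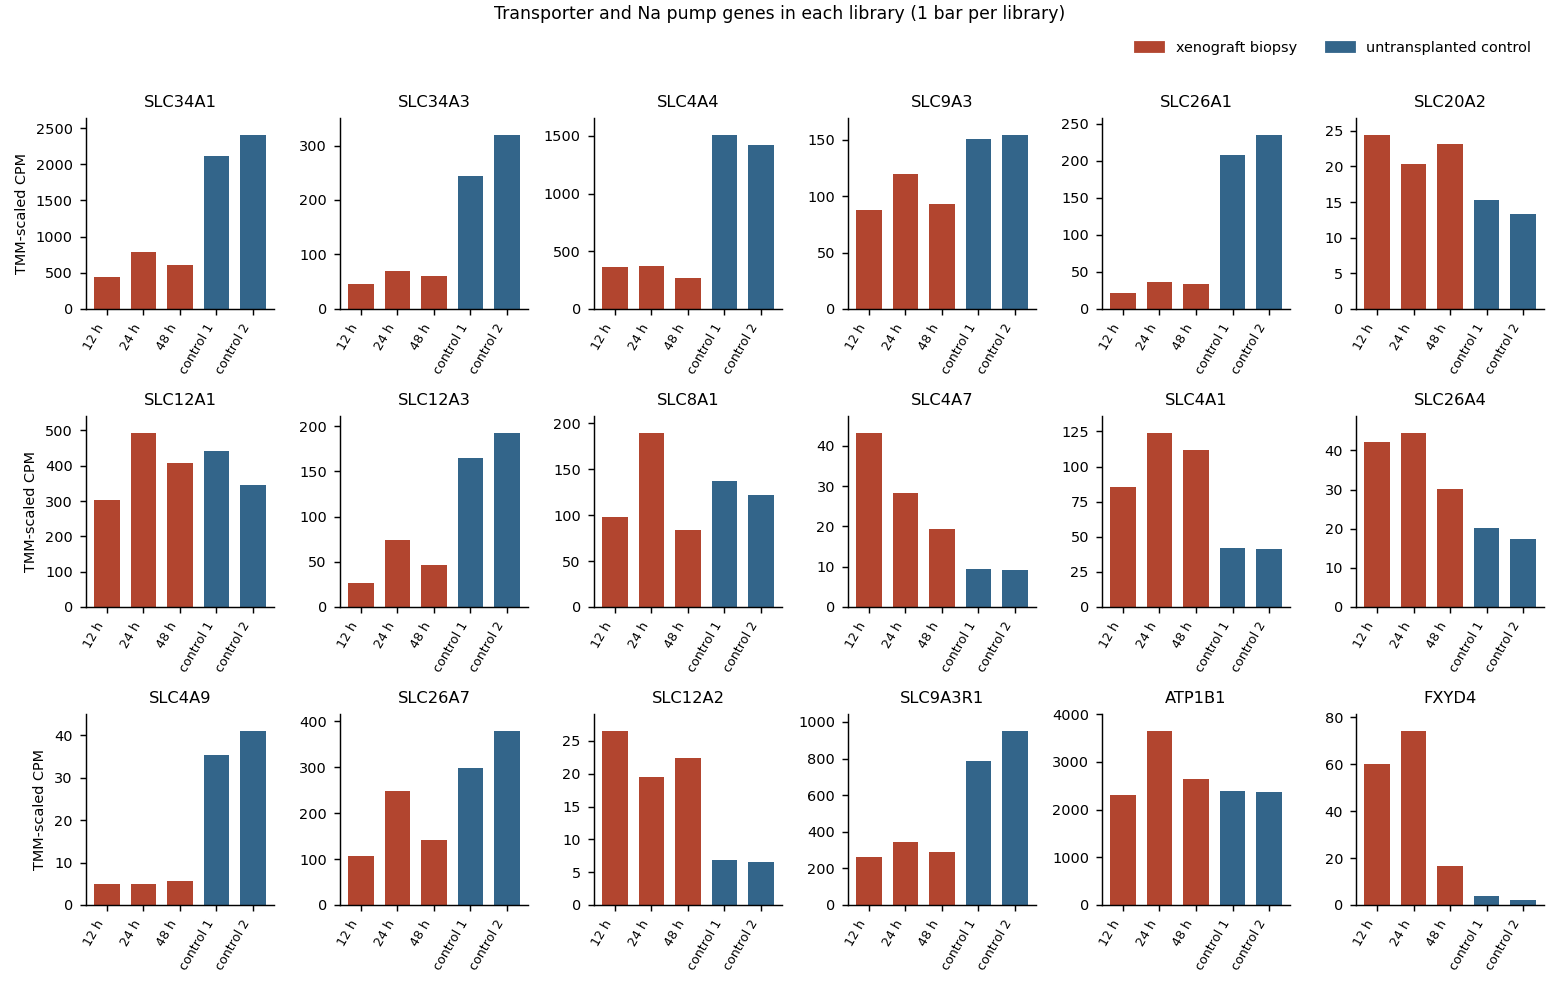
TMM-scaled CPM of 18 members in each library, with the 3 xenograft biopsies in red on the left and the 2 controls in blue on the right of each panel. Each vertical axis starts at 0. SLC34A1, SLC34A3, SLC4A4, SLC26A1, SLC9A3R1 and SLC4A9 are low in all 3 biopsies, while SLC4A1, SLC12A2 and FXYD4 are high in all 3.

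Of the 3 transporters listed for the thick ascending limb, all tested, 1 rose and 2 were not called. SLC12A1, encoding NKCC2, had 304, 493 and 408 CPM in the biopsies, against 442 and 347 CPM in the controls. The groups overlapped, and the difference was not called (log2 0.03 ± 0.23, edgeR adjusted p = 0.939). SLC9A2, encoding the exchanger NHE2, had 18.3, 23.1 and 17.2 CPM in the biopsies, against 29.3 and 20.8 CPM in the controls, and was not called (log2 -0.36 ± 0.20, adjusted p = 0.188). SLC4A7, encoding the electroneutral sodium-bicarbonate cotransporter NBCn1, rose 3.25-fold, with 43.2, 28.3 and 19.4 CPM in the biopsies, against 9.52 and 9.10 CPM in the controls (log2 1.70 ± 0.34, adjusted p = 0.0103). All 3 biopsies were above both controls, and the highest was the 12 h biopsy. SLC4A7 missed the threshold once control replicate 1 or 2 was dropped (adjusted p = 0.0768 and 0.0944).

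The markers of this limb went both ways. Of 8 tested, 5 rose and 2 fell (median log2 0.77), and their summed level was 4120 to 5940 CPM in the biopsies, against 3580 to 3677 CPM in the controls. CLDN16, a paracellular magnesium and calcium pathway gene, rose 3.17-fold (edgeR adjusted p = 0.00117), the calcium-sensing receptor gene CASR 2.48-fold (0.00286) and the potassium channel gene KCNJ1 1.76-fold (0.0105). CLDN10 fell 2.27-fold (0.00483) and EGF 1.98-fold (0.0259). Without control replicate 1 or 2, 2 of the markers rose in each fit, CLDN16 and CASR, while KCNJ1 did not (adjusted p = 0.0743 and 0.121), nor EGF (0.118 and 0.153), nor CLDN10 without control replicate 2 (0.0604).

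In the distal convoluted tubule, SLC12A3, encoding NCC, fell 3.64-fold, with 26.7, 74.1 and 46.4 CPM in the biopsies, against 164 and 192 CPM in the controls (log2 -1.86 ± 0.39, edgeR adjusted p = 0.0138). Every biopsy was below both controls, but the 24 h biopsy held more of it than the other two. Set against NKCC2 within each library, the ratio of SLC12A3 to SLC12A1 counts was 0.0879, 0.150 and 0.114 in the biopsies, against 0.372 and 0.555 in the controls. SLC8A1, encoding the sodium-calcium exchanger NCX1 that recovers calcium in the connecting tubule, had 97.4, 189 and 83.3 CPM in the biopsies, against 137 and 122 CPM in the controls, and was not called (log2 -0.07 ± 0.35, adjusted p = 0.894). Its 24 h biopsy was the highest library and the other two biopsies were the lowest. SLC12A3 lost its call with control replicate 1 or 2 left out (adjusted p = 0.0607 and 0.092).

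Markers of the distal convoluted and connecting tubule differed between the biopsies, but not all in the same way. Their summed level was 1190.3, 3557 and 956 CPM in the 12, 24 and 48 h biopsies, against 2150.4 and 1906 CPM in the controls. Most of that sum was CALB1, the calcium-buffering protein calbindin, at 967, 3264 and 830.3 CPM in the biopsies, against 1847 and 1563 CPM in the controls (log2 -0.01 ± 0.61, adjusted p = 0.987). PVALB, encoding parvalbumin, had 0.622, 0.659 and 1.73 CPM in the biopsies, against 2.33 and 2.96 CPM in the controls, and the calcium channel gene TRPV5 had 2.34, 2.58 and 2.61 CPM, against 2.19 and 3.44 CPM, so neither was highest at 24 h. PVALB and TRPV5 were picked out after their values were seen. The other markers listed were, like CALB1, highest at 24 h among the biopsies. TRPM6 had 11.4, 24.9 and 17.1 CPM, CNNM2 18.1, 21.8 and 18.4 CPM and KLK1 190, 243 and 85.5 CPM at 12, 24 and 48 h. By edgeR, 0 of the 6 markers were called and 2 had an unadjusted p under 0.05, DESeq2 called 2 lower, and edgeR without the 24 h biopsy called 2 lower. The part of this difference between the cores in the levels of SLC12A3 and SLC8A1 was not tested.

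**Figure D3:**
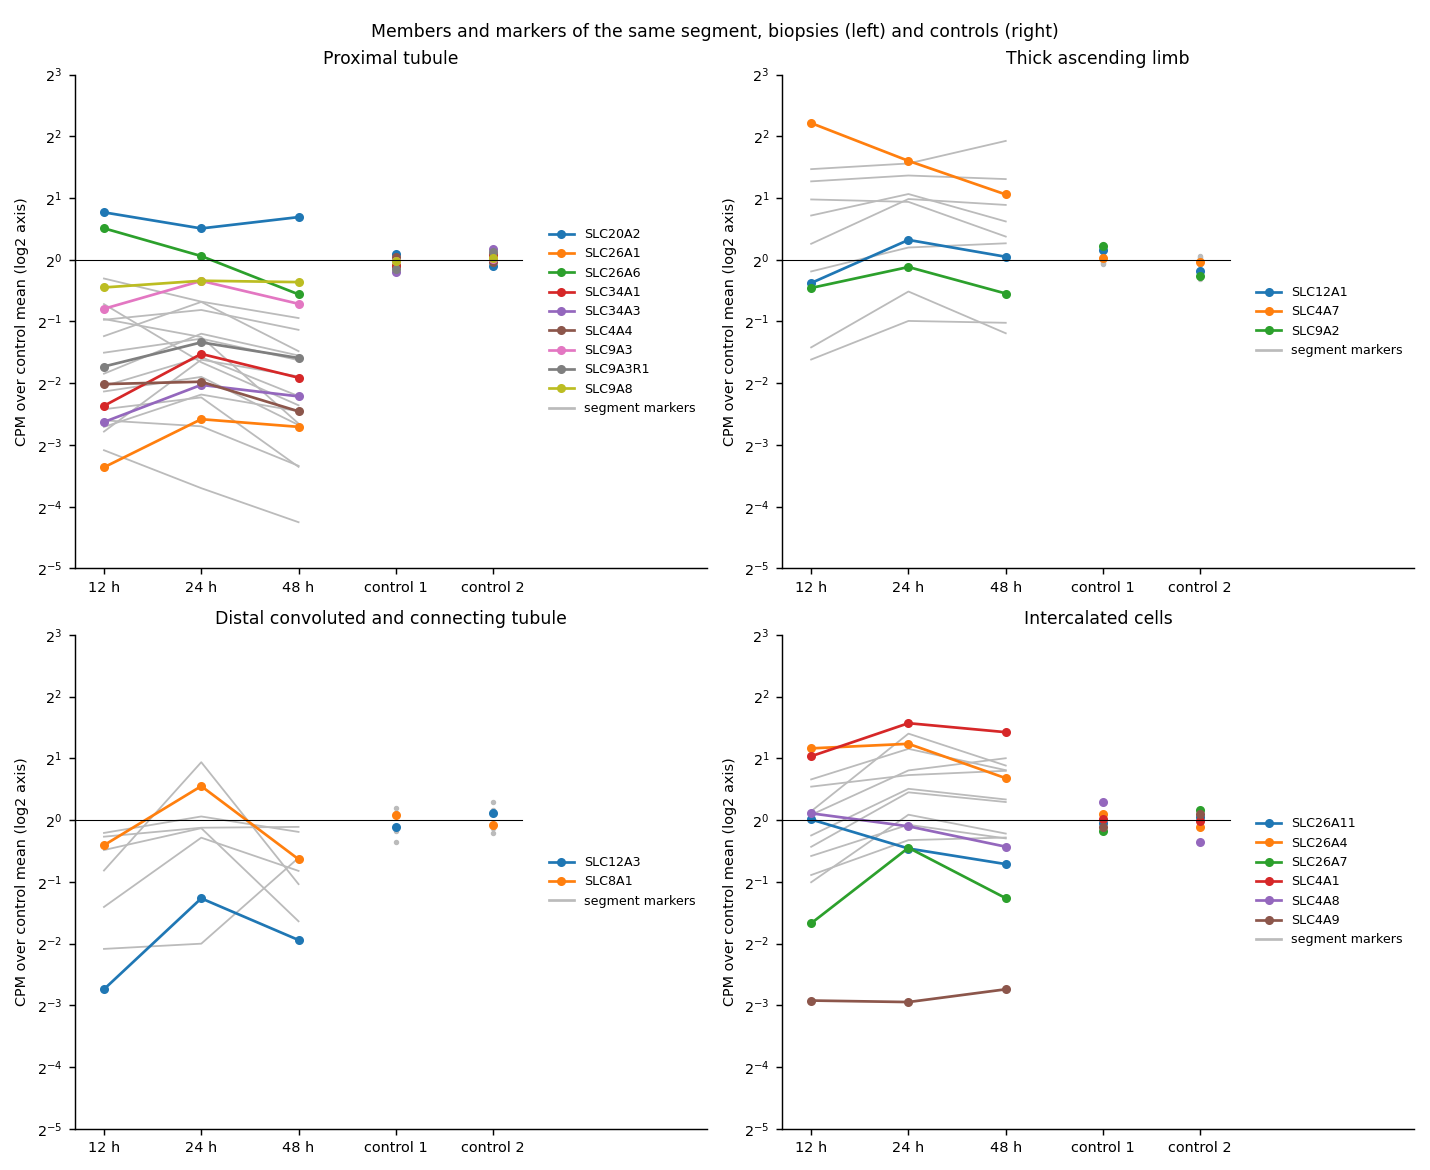
Level of each member (coloured) and of each marker of the same segment (grey) divided by the mean of the 2 controls, on a log2 axis, with the 12, 24 and 48 h biopsies on the left and the 2 controls on the right of each panel. In the proximal tubule panel SLC20A2 lies above the line at 1 in every biopsy, and in the intercalated cell panel SLC4A1 and SLC26A4 lie above it while SLC4A9 lies near an eighth of the control level.

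The exchangers of intercalated cells split. Of 6 listed and tested, 2 rose, 1 fell and 3 were not called. SLC4A1, encoding AE1, the basolateral chloride-bicarbonate exchanger of acid-secreting cells and the band 3 protein of red cells, had 85.4, 124 and 112 CPM in the biopsies, against 42.0 and 41.5 CPM in the controls. Every biopsy was at or above 85.4 CPM, and the gene rose 2.57-fold (log2 1.36 ± 0.18, edgeR adjusted p = 0.00195). SLC26A4, encoding pendrin, the apical exchanger of bicarbonate-secreting cells, rose 2.06-fold, with 42.2, 44.4 and 30.2 CPM in the biopsies, against 20.3 and 17.5 CPM in the controls (log2 1.04 ± 0.20, adjusted p = 0.00701). Its call was lost with control replicate 2 left out (adjusted p = 0.0893).

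SLC4A9, encoding AE4, a basolateral carrier of bicarbonate-secreting intercalated cells known from mouse kidney, went the other way. It had 5.02, 4.93 and 5.69 CPM in the biopsies, against 35.2 and 40.9 CPM in the controls, and fell 7.30-fold (log2 -2.87 ± 0.14, edgeR adjusted p = 0.000166). The 3 biopsies were close to each other and far below both controls. Within a library, the ratio of SLC4A9 to SLC26A4 counts was 0.119, 0.111 and 0.188 in the biopsies, against 1.73 and 2.34 in the controls. The ratio of SLC4A9 to SLC4A1 counts was 0.0587, 0.0398 and 0.0508 in the biopsies, against 0.838 and 0.987 in the controls.

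SLC26A7, encoding an anion exchanger of acid-secreting cells in the outer medulla, had 106, 247 and 141 CPM in the biopsies, against 298 and 378 CPM in the controls. All biopsies were below both controls, but the difference was not called (log2 -1.04 ± 0.35, edgeR adjusted p = 0.0581). With the 24 h biopsy left out it fell (log2 -1.46, adjusted p = 0.00659). The ratio of SLC26A7 to SLC4A1 counts was 1.24, 2.00 and 1.26 in the biopsies, against 7.08 and 9.12 in the controls. SLC26A11, another anion carrier gene of these cells, had 52.8, 38.1 and 32.0 CPM in the biopsies, against 50.8 and 54.1 CPM in the controls, and was not called (log2 -0.36 ± 0.21, adjusted p = 0.216), but was lower without the 12 h biopsy (log2 -0.58, adjusted p = 0.0117). SLC4A8, encoding the sodium-driven exchanger NDCBE, had 8.88, 7.68 and 6.11 CPM in the biopsies, against 10.04 and 6.43 CPM in the controls, and its groups overlapped (log2 -0.12 ± 0.26, adjusted p = 0.728).

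Markers of intercalated cells and of red cells were set beside these values. Of 9 intercalated cell markers tested, 2 rose and 0 fell (median log2 0.23), with a summed level of 833 to 1389 CPM in the biopsies, against 1142 to 1177 CPM in the controls. ATP6V0A4, a subunit of the plasma membrane proton pump, rose 1.85-fold (edgeR adjusted p = 0.00742) and the transcription factor gene FOXI1 1.62-fold (0.0109), though neither passed without control replicate 1 (0.0722 and 0.0999) or control replicate 2 (0.0846 and 0.0828). Without the 12 h biopsy 5 of the 9 rose, and by DESeq2 4. Of 12 red cell markers 7 were in the pig table, and their summed level was 1.68 to 2.24 CPM in the biopsies, against 1.59 to 2.46 CPM in the controls. Pig AHSP was at 0 in all libraries, ALAS2 had 2, 6 and 1 counts in the biopsies, against 2 and 0 in the controls, and 1 of the 2 tested red cell genes, HBB, rose, at 1.52, 0.852 and 0.864 CPM in the biopsies, against 0.201 and 0.250 CPM in the controls. The human table held 4964, 3098 and 2881 HBB counts in the biopsies, against 26 and 16 in the controls, and the pig table held counts of 110, 62 and 58 in the biopsies, against 12 and 13 in the controls, with the 12 h biopsy highest in both tables. The part of human red cell RNA in the pig-table HBB counts was not tested. For SLC4A1 the human table held 549, 762 and 699 counts in the biopsies, against 218 and 217 in the controls. The pig table held 6182, 9014 and 7514 SLC4A1 counts in the biopsies, against 2509 and 2160 in the controls. As a percentage of pig-table counts, the human-table SLC4A1 counts were 8.88, 8.45 and 9.30 in the biopsies, against 8.69 and 10.05 in the controls. The groups overlapped in this percentage. The part of human red cell RNA in the SLC4A1 counts was not tested. Pig-table HBB was past the threshold only with both controls in the fit (adjusted p = 0.0936 and 0.0847).

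**Figure D4:**
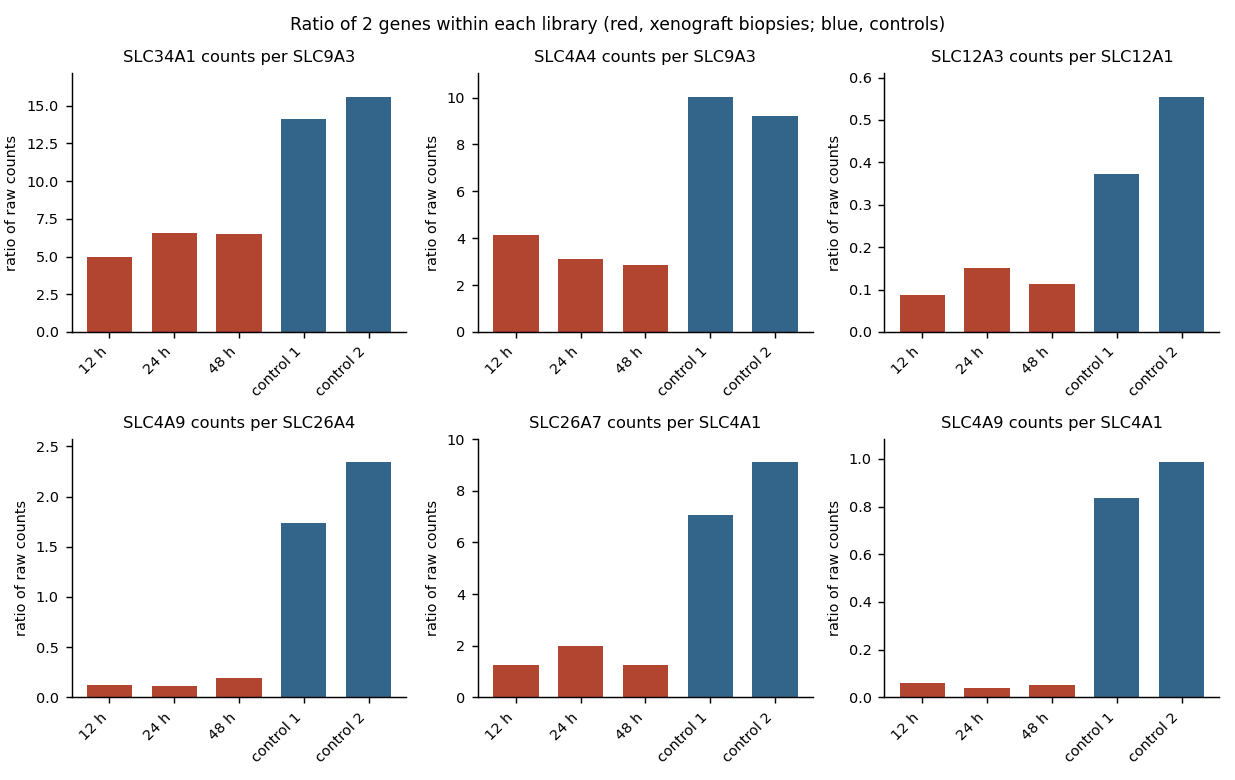
Ratio of the raw counts of a pair of genes within each library, for 6 pairs, with the 3 xenograft biopsies in red on the left and the 2 controls in blue on the right. Axes start at 0, and the size of a ratio also depends on the lengths of both transcripts. All 6 ratios are lower in every biopsy than in either control. The genes paired were chosen with earlier results known, so the ratios restate their fold changes and are no separate support. The ratio of SLC34A1 to SLC34A3, not drawn, was higher in every biopsy (9.62, 11.4 and 9.89) than in either control (8.66 and 7.53).

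The main beta subunit of the sodium-potassium pump was not called. ATP1B1, encoding beta1, had 2300.4, 3645 and 2635 CPM in the biopsies, against 2385 and 2362 CPM in the controls (log2 0.27 ± 0.24, edgeR adjusted p = 0.409). Its 12 h biopsy was below both controls and the later biopsies above them.

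FXYD4, encoding the collecting duct regulator of the pump also called CHIF, had the largest rise of the pump genes. It stood at 60.3, 74.1 and 16.7 CPM in the biopsies, against 3.87 and 2.13 CPM in the controls, and rose 16.7-fold (log2 4.06 ± 0.73, edgeR adjusted p = 0.00833). The 12 and 24 h biopsies were high and the 48 h biopsy was much lower, yet above both controls. It lost its call with control replicate 1 or 2 left out (adjusted p = 0.0509 and 0.0812). Principal cell markers rose in 3 of 7 tested and fell in 0, with a summed level of 325 to 496 CPM in the biopsies, against 248 to 251 CPM in the controls, and without control replicate 1 or 2 none rose. The part of that shift in the FXYD4 result was not tested. FXYD4 was the only FXYD gene of the pig table, so the kidney gamma subunit FXYD2 was not analysed here.

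Minor pump subunits had low counts. ATP1B2, encoding a beta subunit best known from brain, had 1.63, 2.77 and 2.38 CPM in the biopsies, against 10.4 and 9.39 CPM in the controls, and fell 4.37-fold (log2 -2.13 ± 0.27, edgeR adjusted p = 0.00166). ATP1A4, encoding an alpha subunit known from sperm, had 285, 387 and 142 counts in the biopsies, against 66 and 39 counts in the controls, and rose 4.08-fold (adjusted p = 0.0141). Its value is uncertain because reads of close paralogs can be shared. ATP1B4 had 0, 5 and 12 counts in the biopsies, against 31 and 30 in the controls, and fell (log2 -2.72 ± 0.89, adjusted p = 0.0495). ATP1A4 and ATP1B4 lost their calls with control replicate 1 left out (adjusted p = 0.0746 and 0.18) or control replicate 2 (0.136 and 0.217), and ATP1B4 also without the 24 h biopsy (0.130).

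Cation-chloride cotransporters other than NKCC2 and NCC moved in opposite directions. Of 7 tested, 2 rose and 3 fell. SLC12A2, encoding NKCC1, the widely expressed secretory and volume-regulating isoform, had 26.5, 19.6 and 22.4 CPM in the biopsies, against 6.80 and 6.57 CPM in the controls, and rose 3.42-fold (log2 1.77 ± 0.18, edgeR adjusted p = 0.000841). SLC12A4, encoding the potassium-chloride cotransporter KCC1, rose 2.22-fold, with 36.4, 33.9 and 35.8 CPM in the biopsies, against 16.8 and 15.03 CPM in the controls (adjusted p = 0.00114).

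SLC12A9, a member of this family whose cargo is less well defined, fell 1.82-fold, with 16.4, 15.1 and 15.4 CPM in the biopsies, against 26.4 and 30.4 CPM in the controls (edgeR adjusted p = 0.00321). SLC12A5, encoding the neuronal cotransporter KCC2, had 16, 18 and 14 counts in the biopsies, against 38 and 51 counts in the controls, and fell 3.55-fold (adjusted p = 0.0107). SLC12A7, encoding KCC4, had 50.6, 55.0 and 48.7 CPM in the biopsies, against 49.2 and 51.9 CPM in the controls, and was not called (log2 0.03 ± 0.12, adjusted p = 0.882). Of smooth muscle and pericyte markers, 6 of 10 rose and 0 fell, with a summed level of 626 to 1049 CPM in the biopsies, against 345 to 419 CPM in the controls, and their part in these results was not tested. Without control replicate 2, 1 of those markers rose, and SLC12A9 and SLC12A5 did not pass (adjusted p = 0.0536 and 0.134).

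The remaining phosphate and sodium-calcium carriers tested, 3 in number, all rose. SLC20A1, encoding the widely expressed phosphate carrier PiT-1, had 93.9, 76.1 and 67.4 CPM in the biopsies, against 43.8 and 49.1 CPM in the controls, and rose 1.70-fold (log2 0.77 ± 0.17, edgeR adjusted p = 0.0123). SLC34A2, encoding NaPi-IIb, the phosphate carrier of lung and intestine, had 73, 33 and 107 counts in the biopsies, against 8 and 2 counts in the controls, and rose 11.3-fold (log2 3.50 ± 0.77, adjusted p = 0.0128). SLC8A3, encoding the exchanger NCX3, had 16, 12 and 20 counts in the biopsies, against 1 and 0 counts in the controls, which per scaled total is a ratio of 25.3 with an exact 95% interval of 4.33 to 1019 for counting error only (adjusted p = 0.00991). All 3 calls were lost with control replicate 1 left out (adjusted p = 0.112, 0.0542 and 0.051) or control replicate 2 (0.0844, 0.117 and 0.0937).

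The phosphate carriers of the set moved both ways, since SLC34A1 and SLC34A3 fell while SLC20A1, SLC20A2 and SLC34A2 rose. The falls passed under all 10 alternatives, while each of the rises passed under 8. SLC34A2 was also lower in the biopsies by human-table counts, as given below. Of 6 other sodium-proton exchanger genes tested, 1 rose. SLC9A4, encoding NHE4, a basolateral exchanger, was that gene, with 224, 196 and 113 counts in the biopsies, against 25 and 25 counts in the controls (5.53-fold, log2 2.47 ± 0.39, adjusted p = 0.00396). It was past the threshold only with both controls in the fit (adjusted p = 0.0534 and 0.0566), and SLC9A7 passed without the 48 h biopsy (log2 0.82, adjusted p = 0.0263).

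Among other anion and bicarbonate exchangers, SLC26A2, a widely expressed sulfate carrier gene, rose 3.31-fold (log2 1.73 ± 0.25, edgeR adjusted p = 0.00277). It had 5.32, 4.81 and 5.71 CPM in the biopsies, against 1.72 and 1.46 CPM in the controls. The part of human RNA in its pig-table counts was not tested, and its human-table counts are given below. SLC4A2, encoding AE2, the housekeeping chloride-bicarbonate exchanger, had 65.7, 65.7 and 62.5 CPM in the biopsies, against 77.5 and 82.0 CPM in the controls, and was not called (log2 -0.30 ± 0.11, adjusted p = 0.0663). SLC4A11 had 42.9, 48.5 and 29.9 CPM in the biopsies, against 28.1 and 28.8 CPM in the controls (log2 0.51 ± 0.21, adjusted p = 0.0934), and passed without the 48 h biopsy (log2 0.69, adjusted p = 0.00802). The 21 tested members that were not called had log2 fold changes from -1.04 to 0.85. Of these, SLC26A8 and SLC4A5 were lower without the 48 h biopsy (log2 -1.54, adjusted p = 0.0494, and log2 -1.24, adjusted p = 0.0408), and SLC9A9 was higher without the 12 h biopsy (log2 1.21, adjusted p = 0.0153). SLC26A2 lost its call with control replicate 2 left out (adjusted p = 0.0516). The 5 members that did not reach the count filter were SLC26A3, SLC26A5, SLC26A9, SLC4A10 and SLC8A2, of which SLC26A3 had 0 counts in all libraries and no library held more than 6 counts of any of them.

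The symbol rule also took in adaptors that carry no ions, namely SLC9A3R1 above, SLC9A3R2 and SLC4A1AP. SLC9A3R2, encoding the scaffold NHERF2, rose 2.36-fold, with 52.2, 95.7 and 92.7 CPM in the biopsies, against 35.4 and 32.6 CPM in the controls (log2 1.24 ± 0.27, edgeR adjusted p = 0.0142), opposite to the related scaffold gene SLC9A3R1. Endothelial markers, of which 5 of 10 rose and 0 fell, had a summed level of 1039 to 1240.3 CPM in the biopsies, against 541 to 648 CPM in the controls, and their part in the NHERF2 result was not tested. SLC4A1AP, encoding kanadaptin, was at 30.2, 28.8 and 28.8 CPM in the biopsies, against 34.2 and 28.6 CPM in the controls (adjusted p = 0.555). SLC9A3R2 missed the threshold once control replicate 1 or 2 was dropped (adjusted p = 0.0894 and 0.123), and without either control 3 and 2 of the endothelial markers rose.

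Genes that control these carriers were counted from lists. The list for phosphate control had 3 of 14 genes higher and 7 lower (median log2 -0.90). The parathyroid hormone receptor gene PTH1R, through which the hormone withdraws NaPi-IIa from the brush border, fell 3.21-fold (edgeR adjusted p = 0.00068), the vitamin D receptor gene VDR 2.88-fold (0.00178) and the vitamin D hydroxylase gene CYP24A1 5.09-fold (0.019). The stanniocalcin gene STC2 rose 18.5-fold (0.00441) and GALNT3, whose enzyme glycosylates the phosphate hormone FGF23, 2.43-fold (0.00846). Of the FGF23 receptor genes listed, FGFR1 rose 2.05-fold (edgeR adjusted p = 0.00658), while FGFR3 fell 2.63-fold (0.00669) and FGFR4 1.81-fold (0.00867). FGFR3 passed under 9 and FGFR4 under 8 of the 10 alternatives. PTH1R and VDR passed under all 10 alternatives. CYP24A1, STC2, GALNT3 and FGFR1 lost their calls with control replicate 1 left out (0.0933, 0.0509, 0.0857 and 0.0545) or control replicate 2 (0.0853, 0.0581, 0.075 and 0.084), and CYP24A1 also without the 12 h biopsy (0.0509).

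The WNK, SPAK and aldosterone list, which sets the activity of NCC, NKCC2 and the epithelial sodium channel, had 2 of 16 genes higher and 1 lower (median log2 -0.00). SCNN1A, the channel's alpha subunit gene, rose 2.16-fold (edgeR adjusted p = 0.00548) and the aldosterone-induced kinase gene SGK1 1.82-fold (0.00822), while CAB39L, encoding a partner of SPAK, was 1.39-fold lower (0.0189). DESeq2 called 2 higher and 5 lower. All 3 edgeR calls were lost with control replicate 1 left out (0.0633, 0.0717 and 0.133) and with control replicate 2 left out (0.0693, 0.104 and 0.121).

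Carbonic anhydrases and proton pump genes were higher in 1 of 13 and lower in 2 (median log2 0.15). The gene that rose was ATP6V0A4, given above. CA4, the membrane-bound carbonic anhydrase of the proximal tubule, had 76.0, 94.8 and 72.3 CPM in the biopsies, against 292 and 373 CPM in the controls, and fell 4.10-fold (edgeR adjusted p = 0.000651). CA12 fell 1.93-fold (0.0363), but not without control replicate 1 or 2 (0.164 and 0.167) or the 24 h biopsy (0.0784). Without the 12 h biopsy 6 genes of this list rose, and by DESeq2 3.

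Potassium and chloride channels of salt reabsorption were higher in 4 of 9 and lower in 2 (median log2 -0.05). CFTR, the cyclic-AMP-activated chloride channel gene, rose 5.06-fold (edgeR adjusted p = 0.00432) and the volume-regulated anion channel gene LRRC8A 1.57-fold (0.00834), beside KCNJ1 above. KCNJ15 fell 2.72-fold (0.00271) and KCNJ16 1.59-fold (0.0446), both basolateral potassium channel genes of the tubule. Calls were lost for CFTR without control replicate 1 (0.0509), for LRRC8A without control replicate 1 or 2 (0.0738 and 0.0955), and for KCNJ16 without control replicate 1 or 2 (0.235 and 0.15), the 12 h (0.0647) or the 48 h biopsy (0.0755).

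How the transporters changed within the graft was addressed by the slope over 12, 24 and 48 h, in log2 units per 24 h. Of the 50 members, 1 rose with time and 2 fell by edgeR's quasi-likelihood test, against 4.33% of all 12620 genes called, 3.34% rising and 0.983% falling. The median slope was -0.01 over the members and -0.00 over all genes. SLC26A6 had a slope of -0.70 ± 0.13 (SE, adjusted p = 0.0183), with 63.7, 46.6 and 30.4 CPM at 12, 24 and 48 h. SLC4A7 also fell, with a slope of -0.74 ± 0.14 (adjusted p = 0.0198) and 43.2, 28.3 and 19.4 CPM. SLC9A9, encoding the endosomal exchanger NHE9, rose with a slope of 1.101 ± 0.25 (adjusted p = 0.0485) and had 2.57, 5.88 and 9.09 CPM in the biopsies, against 3.63 and 2.84 CPM in the controls.

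With 1 biopsy at each time, a core that holds more of a segment cannot be told apart from change with time. SLC26A6 did not pass without the 48 h biopsy (adjusted p = 0.0801) and SLC4A7 without the 12 h biopsy (0.0771). SLC9A9 did not pass without the 12 h biopsy (0.154), control replicate 1 (0.0681) or control replicate 2 (0.0651). Of 8 leukocyte markers tested 2 were higher and 3 lower than in the controls, and the summed level was 106, 130 and 167 CPM in the 12, 24 and 48 h biopsies, against 66.5 and 72.2 CPM in the controls, and their part in the SLC9A9 slope was not tested. FXYD4 had a slope of -1.40 ± 0.42 that was not called (adjusted p = 0.144).

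Of the 50 members tested, 27 were highest at 24 h among the biopsies, in proximal as well as distal and collecting segments. In the proximal tubule these included SLC34A1, SLC34A3, SLC26A1, SLC9A3 and SLC9A3R1, but not SLC20A2 and SLC26A6. SLC4A9, SLC4A8 and SLC26A11 of intercalated cells were not among them. SLC12A3, SLC8A1 and SLC26A7 had their highest biopsy level at 24 h, and their slopes over all 3 biopsies were not called (log2 0.27 ± 0.44, -0.36 ± 0.38 and 0.05 ± 0.41 per 24 h, edgeR adjusted p = 0.791, 0.666 and 0.965). Between the 12 and 24 h biopsies alone the slopes per 24 h were 2.95, 1.92 and 2.45, and between the 24 and 48 h biopsies -0.68, -1.19 and -0.82. SLC34A1 stood at 1.79 times its 12 h level at 24 h and 1.37 times at 48 h, with a slope of 0.18 ± 0.27 (adjusted p = 0.764), and no biopsy reached the level of either control.

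**Figure D5:**
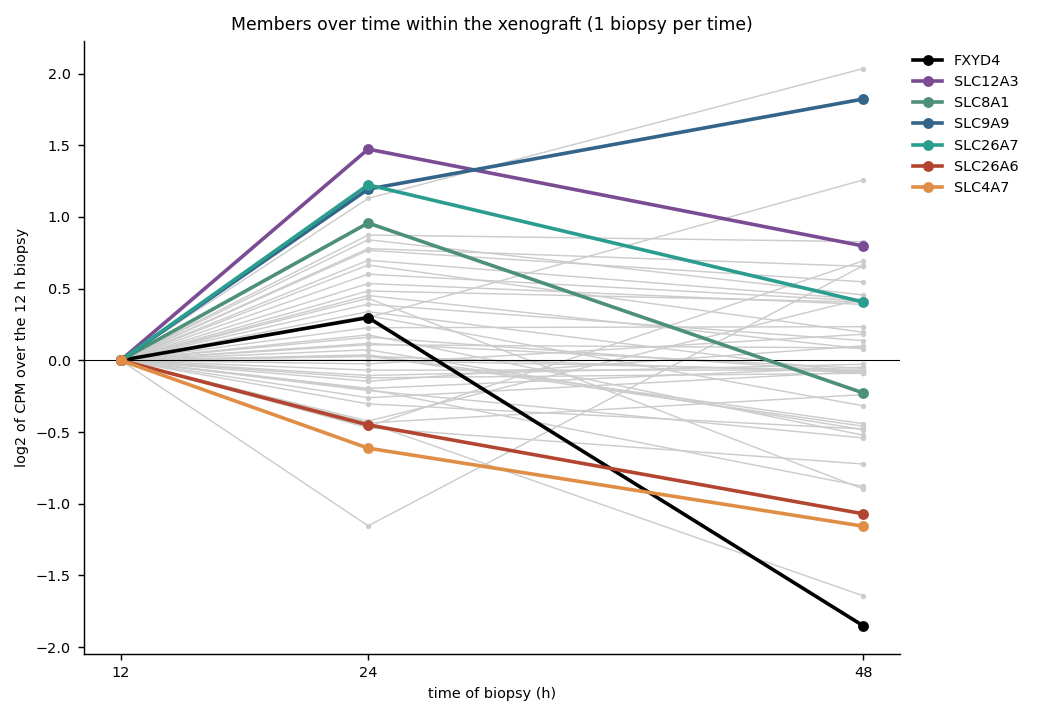
Log2 of the level of each member over its own level in the 12 h biopsy, against the time of the biopsy in hours, for the 49 members tested that had counts at 12 h. SLC26A6 and SLC4A7 descend at both steps and SLC9A9 climbs at both, while SLC12A3, SLC8A1 and SLC26A7 are highest at 24 h and FXYD4 is lowest at 48 h.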

How the data were processed

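Per the labels' protocols, total RNA came from homogenised kidney core biopsies and libraries were depleted of ribosomal RNA; the labels' cell type field reads as dissociated cells instead. The authors deposited raw counts per gene symbol against the pig genome and, in a second table, against the human genome. Per the submitters' processing notes the build was hg38. The pig build, the aligner, the counter, its strand setting and the annotation are not given in the sources used here. The tests used edgeR 4.0.16 under R 4.3.3: TMM scaling, filterByExpr (minimum count 10, minimum total 15), a robust quasi-likelihood test and Benjamini-Hochberg adjustment over 12620 genes. Each SE was obtained from the log2 fold change and the F statistic. The group comparison had 3 residual degrees of freedom and its spread includes change with time. The slope had 2, with a separate term for the controls, which add only to the spread. DESeq2 1.42.0 was an alternative. The control libraries differed beyond sampling noise, their chi-square over 12703 genes being 212 times its degrees of freedom. Intervals cover counting error only. The script was tested on simulated data.

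Of the 55 members, 54 matched a RefSeq gene table of Sscrofa11.1 and 20 overlap another gene there, among the called ones SLC12A2, SLC12A4, SLC12A5, SLC20A2, SLC26A1, SLC4A1, SLC4A4, SLC4A9 and SLC9A8, so reads of both genes may be mixed. No coordinates or sequences are printed. Some members are counted but not reported by name here. Members and lists were chosen with earlier results of these data known. Values in all libraries are given for the other tested members of the nephron segment, pump and FXYD lists and for other called members. From pathway and marker lists, up to 3 called genes in each direction are given, with FGFR3 and FGFR4 added beside FGFR1.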

Additional observations from a re-analysis of the deposited data

Results flagged for a closer look

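The human count table was not part of any comparison. Of its 91 symbols with the member prefixes, 2 had at most 1 count in each control and at least 30 in every biopsy. These limits were chosen after the values were seen and were not applied to the other human-table symbols. FXYD5, encoding the pump regulator dysadherin, had 146, 125 and 192 human-table counts in the 12, 24 and 48 h biopsies, a sum of 463, against 1 and 0 in the controls. It is not among the pig symbols analysed here. SLC26A2 had 44, 43 and 88 human-table counts in the biopsies, a sum of 175, against 0 and 0 in the controls, and in the pig table it had 385, 350 and 383 counts in the biopsies, against 103 and 76 in the controls. Human-table totals were 18770409 to 19738224 in the biopsies, against 13386788 and 15058403 in the controls.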

How the results depend on the processing

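All 29 members called between biopsies and controls kept their sign under the 10 alternatives, and 11 passed in each. The median log2 fold change of all genes was 0.02 with RLE scaling, 0.03 without the mitochondrial genes and 0.04 with no count filter, against 0.03. With DESeq2, 1 pump subunit gene was lower, 2 sodium-proton exchanger genes were higher, 2 intercalated cell genes were lower (also 2 with the non-robust prior) and 265 genes fell with time, against 2, 1, 1 and 124. With the non-robust prior 0 members rose with time, SLC9A9 being at an adjusted p of 0.0506. By edgeR 13 of the 50 members and 2419 of all 12620 genes tested had an unadjusted slope p under 0.05. With 1 library left out, members numbered 3 to 17 higher and 8 to 15 lower, and all genes 464 to 2633 and 727 to 2633. The ranges were 5 to 7 lower and 0 to 1 higher for proximal tubule genes, 0 to 1 higher for the thick ascending limb, 0 to 1 lower for the distal tubule, 1 to 2 higher and 1 to 2 lower for intercalated cells, 0 to 2 higher and 1 to 2 lower for pump subunits, and 0 to 1 higher for FXYD. They were 2 to 2 higher and 1 to 3 lower for cation-chloride cotransport, 0 to 2 higher for sodium-proton exchange, 0 to 2 for other anion exchange, 0 to 3 for other phosphate and calcium carriers and 0 to 1 for adaptors. With time, 0 to 10 members rose and 1 to 10 fell, and 349 to 1728 and 83 to 1037 of all genes. Slopes without a biopsy take their spread from the control pair alone, which limits them. Slopes reversed for SLC12A3 (-0.68) and SLC26A7 (-0.82) without the 12 h biopsy and for SLC8A1 (1.92) without the 48 h biopsy, and these slopes lie at the ends of ranges from -0.68 to 2.95, -0.82 to 2.45 and -1.19 to 1.92. The cause of these changes was not tested. No paired analysis was made, because the biopsies were samples of 1 graft and no label matches a control library to any of them. Depth limits members under about 10 counts.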

Other observations

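Podocyte markers moved mostly down beside the transporters. Of 6 tested, 5 fell and 1 rose by edgeR, with a summed level of 118 to 188 CPM in the biopsies, against 290 to 364 CPM in the controls. NPHS1, encoding the slit diaphragm protein nephrin, fell 4.21-fold (edgeR adjusted p = 0.000633). With either control left out, 2 of these markers fell.

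The human table also held counts for the transporter symbols in the pig-only control libraries, so its counts for a member are not by themselves human transcripts. Over the members together it held 36.5, 37.4 and 37.6 counts per 100 pig-table counts in the 12, 24 and 48 h biopsies, against 32.5 and 32.4 in control replicates 1 and 2. For SLC34A1 the figure was 25.8, 25.3 and 25.2 in the biopsies, against 24.9 and 24.4 in the controls.

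SLC12A3 had more counts in the human table than in the pig table in every library. The human table held 2720, 8062 and 4581 SLC12A3 counts in the biopsies, against 13702 and 14028 in the controls, or 141, 150 and 147 per 100 pig-table counts in the biopsies, against 139 and 140.0 in the controls. In both tables every biopsy had fewer SLC12A3 counts than either control.

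SLC34A2 was higher in the biopsies by pig-table counts and lower by human-table counts, with no test of the human table. It had 73, 33 and 107 pig-table counts in the biopsies, against 8 and 2 in the controls, and 18, 10 and 8 human-table counts in the biopsies, against 30 and 37 in the controls. SLC9A3 had 13.9, 12.2 and 11.9 human-table counts for every 100 in the pig table in the biopsies, against 8.47 and 7.23 in the controls. Its human-table counts were 883, 1063 and 743 in the biopsies, against 760 and 581 in the controls, and the groups overlapped.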
